A study of Homo sapiens with 6 samples.

Results

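The genes described here encode the enzymes and regulators of polyamine metabolism, with ODC1 at their head, in MIA PaCa-2 cells, a long-established line from a human pancreatic carcinoma. There are 10 of them, chosen by name: ODC1, AMD1, SRM, SMS, SAT1, AZIN1, OAZ1, OAZ2, DHPS and DOHH. All 10 were found among the 18268 rows of the deposited expression table, 8 in a row of their own and 2 in rows that join several symbols. The list was drawn up with values of these same libraries in view, so the differences between the groups given for these 10 genes are descriptions, from which nothing further is drawn.

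Total RNA was sequenced from 3 libraries labelled as cells with a knockout of LINC00901, a long non-coding RNA gene (KO 1 to 3), and from 3 libraries labelled as vector control cells, titled LCV2 (vector control 1 to 3). Both groups were grown in DMEM with fetal bovine and horse serum, and no other treatment, allele or time is named. The labels do not say whether the knockout was 1 clone or a pool, nor whether the 3 libraries of a group came from separate cultures, so the spread between libraries may be technical. LINC00901 is named in 0 of the rows, so the knockout was not checked in these values and each direction rests on the labels.

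Polyamines are small, positively charged molecules that bind nucleic acids and that growing cells need. ODC1 (ornithine decarboxylase) makes putrescine, and AMD1 supplies decarboxylated S-adenosylmethionine, from which SRM and SMS add the aminopropyl groups that give spermidine and spermine. SAT1 acetylates spermidine and spermine for export or breakdown, the antizymes OAZ1 and OAZ2 bind ODC1 and send it to the proteasome, and AZIN1, an ODC1 relative without catalytic activity, ties up antizyme. DHPS and DOHH use spermidine to build the amino acid hypusine in the translation factor eIF5A. ODC1 is a textbook transcriptional target of MYC, and its protein is known for fast turnover.

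Promoter sequence is shown first for 3 genes whose values turned out to move together or in opposition across the libraries: ODC1, AMD1 and SAT1. Each run holds the 250 bases before a RefSeq transcription start on GRCh38.p14, read 5′ to 3′ on the gene's strand. Capitals mark the GC box GGGCGG, the CCAAT box CCAAT and the TATA motif TATAA, on either strand. The regions are chr2:10448328-10448577 on the minus strand for ODC1, chr6:110874534-110874783 on the plus strand for AMD1 and chrX:23782923-23783172 on the plus strand for SAT1.
ODC1: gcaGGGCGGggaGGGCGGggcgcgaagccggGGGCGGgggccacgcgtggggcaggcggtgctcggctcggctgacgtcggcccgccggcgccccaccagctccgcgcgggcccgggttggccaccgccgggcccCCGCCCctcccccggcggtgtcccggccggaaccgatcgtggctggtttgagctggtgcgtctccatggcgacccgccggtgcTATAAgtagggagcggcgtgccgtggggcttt
AMD1: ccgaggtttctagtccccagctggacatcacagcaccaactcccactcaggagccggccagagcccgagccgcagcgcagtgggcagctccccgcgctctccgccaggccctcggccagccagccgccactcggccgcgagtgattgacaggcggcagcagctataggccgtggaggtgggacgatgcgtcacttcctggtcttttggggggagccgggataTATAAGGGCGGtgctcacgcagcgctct
SAT1: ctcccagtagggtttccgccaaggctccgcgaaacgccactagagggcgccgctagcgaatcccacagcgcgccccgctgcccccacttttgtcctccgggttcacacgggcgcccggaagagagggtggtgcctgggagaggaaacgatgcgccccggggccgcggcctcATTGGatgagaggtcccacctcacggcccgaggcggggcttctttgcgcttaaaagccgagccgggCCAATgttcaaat

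ODC1 held 4 GC boxes, 0 CCAAT boxes and 1 TATA motif, and AMD1 held 1, 0 and 1, its GC box adjoining the TATA motif. SAT1 held 0 GC boxes, 2 CCAAT boxes and 0 TATA motifs. The TATA motif began at -32 from the start in ODC1 and at -28 in AMD1. Of 35116 RefSeq windows cut the same way, 42.6% held at least 1 GC box, 32.0% a CCAAT box and 18.9% a TATA motif. No share was computed for 4 GC boxes or for a motif at a given position. Each match is a description of letters only.

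The E-box CACGTG, the core site to which MYC and MAX bind, was looked for in the whole RefSeq windows of 250 bases before and 50 after a start. Windows were found for 9 of the 10 genes, AZIN1 being the other, and 7.26% of all 35116 windows held the E-box. It occurred in those of ODC1, SRM and DOHH, and in none of those of the remaining 6 genes. The 9 genes had 12 windows, so a count of genes is not comparable with that share of windows. The 2 ODC1 copies lay near a second RefSeq start, at chr2:10448036-10448041 and chr2:10448002-10448007. The first began at -29 from that start and the second 5 bases after it. Both lay inside the gene and outside every ODC1 exon of GENCODE 29. The SRM copy lay at chr1:11060212-11060217, outside the GENCODE gene. The DOHH copy, whose bases are not shown, lay at chr19:3500678-3500683, at -9 from its RefSeq start and in an exon of the transcript DOHH-201. The ODC1 and SRM copies are shown, minus strand and E-box in capitals, because the level of MYC is set beside that of ODC1 below.
ODC1 E-box 1: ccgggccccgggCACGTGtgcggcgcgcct
ODC1 E-box 2: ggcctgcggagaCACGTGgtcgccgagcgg
SRM E-box: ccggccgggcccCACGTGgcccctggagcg

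Values are FPKM, fragments scaled by the authors to transcript length and library size, which summed to 123107 to 134389 per library. Over 9624 rows with at least 1 FPKM in at least 3 libraries, vector control 1 correlated with vector control 2 and 3 at r = 0.904 and 0.906, and KO 1 with KO 2 and 3 at 0.933 and 0.935. The other pairs within a group stood closer, at 0.979 for vector control 2 and 3 and 0.970 for KO 2 and 3, so vector control 1 and KO 1 each stood apart from their group (across genes, which are not independent replicates). Vector control 1 lay closer to KO 2 and KO 3, at 0.925 and 0.932, than to its own group, and vector control 2 and 3 lay closer to KO 1, at 0.920 and 0.921, than to vector control 1. The labels call the cells epithelial. Of 8 epithelial markers the keratin gene KRT18 stood at 70.41 to 79.42 FPKM in the control libraries and 28.78 to 58.00 in the knockout libraries. KRT8, in a row joined with KRT78, stood at 17.61 to 19.76 and 7.23 to 14.29. Neither was called. The groups overlapped for KRT19, the joined CLDN7 row and CLDN4, which ranged from 0.54 in KO 1 to 42.72 in vector control 2. CDH1 (E-cadherin) reached at most 0.02, KRT7 at most 0.11 and EPCAM at most 0.14. The markers summed to 143 to 209 FPKM in the control libraries and 93.2 to 125 in the knockout libraries, and their part in the differences below was not tested. Leukocyte PTPRC and CD3E, fibroblast DCN and endothelial VWF were listed at 0 in all 6 libraries. LYZ (lysozyme), on the leukocyte list, was listed at 0 in the 3 control libraries and stood at 1.45, 1.83 and 1.2 FPKM in the knockout libraries, called higher by limma (adjusted p = 0.00799), although it passed the filter only through the knockout group. COL3A1, a fibroblast collagen gene, stood at 43.10, 61.20 and 62.02 FPKM in the control libraries and at 41.24, 18.78 and 16.46 in the knockout libraries, without overlap and not called, and COL1A1 ranged from 0.96 to 3.95. The summed levels in control and knockout libraries were 0 to 0.68 and 1.2 to 1.83 FPKM for 4 leukocyte markers, 44.2 to 63.8 and 17.5 to 45.3 for 5 fibroblast markers, and 0.14 to 0.34 and 0 for 3 endothelial markers. The part of these markers in the results was not tested.

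ODC1 differed more among the control libraries than between the groups. It stood at 48.35 FPKM in vector control 1 and at 12.96 and 12.56 in vector control 2 and 3. In the knockout libraries it stood at 21.15, 34.57 and 33.02. All 3 KO values therefore lay between the highest and the lower pair of controls. Vector control 1 was 3.79 times the mean of the other 2 controls, and KO 2 and 3 together were 1.60 times KO 1. In bulk RNA, fewer cells that express a gene and less of its RNA per cell cannot be told apart. The group means were 24.6 ± 20.5 FPKM in the control libraries and 29.6 ± 7.34 in the knockout libraries (SD, n = 3 each). The log2 fold change, on the log2(FPKM + 1) scale used throughout, was 0.51 (SE 0.50) from limma, and ODC1 was not called, a call being a Benjamini-Hochberg adjusted p below 0.05 over all rows tested.

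That value depended most on vector control 1. Without that library the ODC1 log2 fold change was 1.12 and passed the threshold, in a fit that called 1329 of all 9624 rows. Without vector control 2 or 3 it was 0.21 or 0.19, and ODC1 was not called. The range of ODC1 within the control libraries was 1.86 on the log2 scale, and 1.51% of the tested rows had a range as wide or wider there, the median row having 0.46. Of its variation over the 6 libraries, 13.1% lay between the groups, against 24.0% for the median tested row. A single library has no replicate, so differences between libraries of 1 group carry no test.

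**Figure D1:**
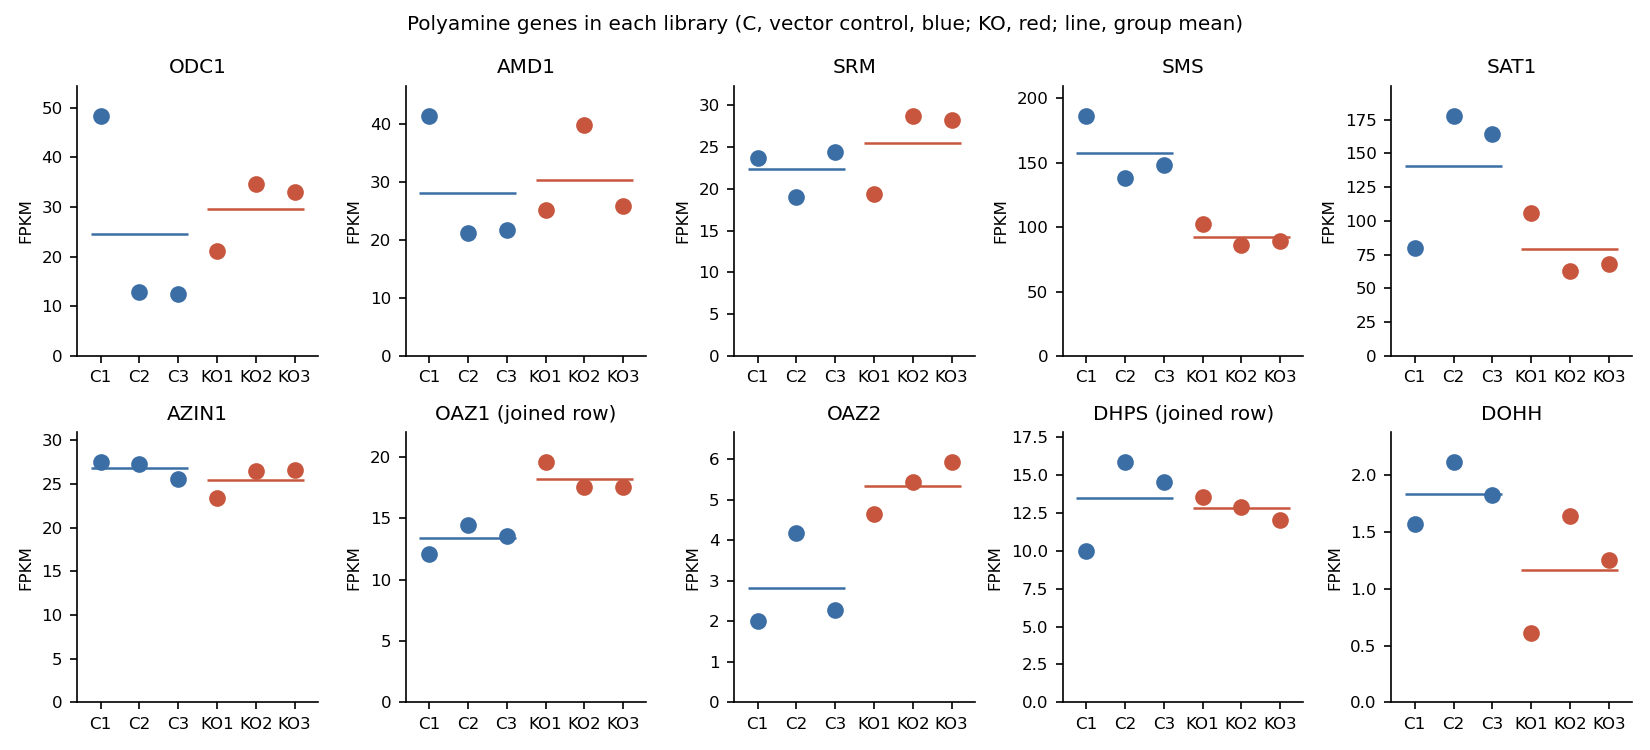
FPKM (y axis, linear from 0) of the 10 polyamine genes in each vector control (C1 to C3, blue) and KO library (KO1 to KO3, red), with a line at each group mean of 3 libraries. ODC1 in C1, at 48.35, stands above all other libraries, C2 and C3 are the lowest, and SMS, OAZ2 and the joined OAZ1 row separate the groups.

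AMD1, the decarboxylase that feeds the later steps, had the same highest library as ODC1. It stood at 41.30, 21.22 and 21.59 FPKM in vector control 1 to 3 and at 25.06, 39.80 and 25.85 in KO 1 to 3. Vector control 1 and KO 2 were the 2 highest libraries and vector control 2 and 3 the 2 lowest. KO 3, which was high for ODC1, was close to KO 1 for AMD1. The log2 fold change was 0.14 (SE 0.30), and it took the opposite sign when KO 2, vector control 2 or vector control 3 was left out, the lowest of these values being -0.07.

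The aminopropyltransferases SRM and SMS did not move alike. SRM (spermidine synthase) stood at 23.68, 19.01 and 24.42 FPKM in the control libraries and at 19.42, 28.71 and 28.29 in the knockout libraries, with a log2 fold change of 0.17 (SE 0.20). KO 2 and 3 were its highest libraries, KO 1 lay among its lowest, and the groups overlapped. SMS (spermine synthase) stood at 186.25, 138.42 and 147.84 FPKM in the control libraries and at 102.42, 86.13 and 89.11 in the knockout libraries. Every SMS value of the KO group lay below every control.

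SMS averaged 158 ± 25.3 FPKM in the control libraries and 92.6 ± 8.67 in the knockout libraries (SD, n = 3 each), a log2 fold change of -0.75 (SE 0.17). It was not called over all rows tested. Without vector control 1, where 1329 of all 9624 rows were called, SMS was called at -0.63. The fold change was negative with each library left out, between -0.84 and -0.63. Between the groups lay 86.4% of its variation. The ratio of SMS to SRM within a library, which scaling of the library does not alter, was 7.87, 7.28 and 6.05 in vector control 1 to 3. It was 5.27, 3.0 and 3.15 in KO 1 to 3.

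SAT1, the acetyltransferase of polyamine breakdown, ran against ODC1. It stood at 79.59 FPKM in vector control 1 and at 177.77 and 164.22 in vector control 2 and 3. In KO 1 to 3 it stood at 105.57, 63.15 and 67.99. Vector control 1, highest for ODC1, lay among the knockout libraries for SAT1, and vector control 2 and 3, lowest for ODC1, were highest. The log2 fold change was -0.78 (SE 0.34) and was not called. Without vector control 1 it was -1.14 and was called, in the fit that called 1329 of all 9624 rows. The fold change was negative with each library left out, between -1.14 and -0.57. Within the control libraries the SAT1 range of 1.15 on the log2 scale was matched or exceeded by 8.80% of the tested rows.

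The ratio of ODC1 to SAT1 therefore spread more widely than either gene. Vector control 1 had a ratio of 0.607, vector control 2 one of 0.0729 and vector control 3 one of 0.0765. For KO 1 to 3 it was 0.200, 0.547 and 0.486. Vector control 1, KO 2 and KO 3 formed the high end, vector control 2 and 3 the low end, and KO 1 lay between them.

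**Figure D2:**
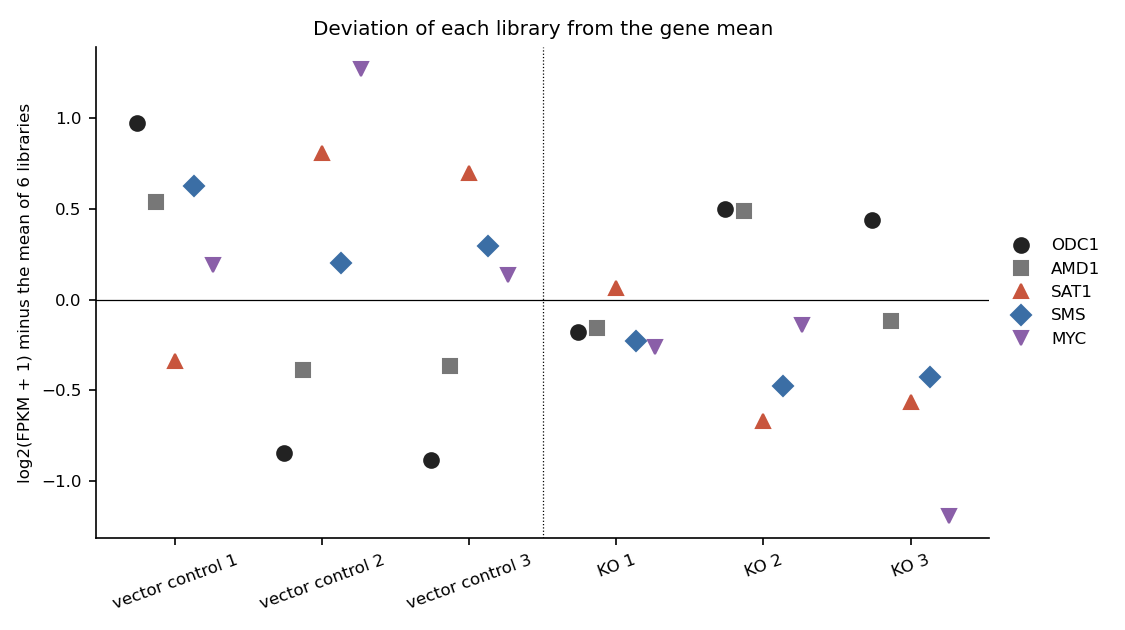
Log2(FPKM + 1) of ODC1, AMD1, SAT1, SMS and MYC in each library, minus the mean of that gene over the 6 libraries (y axis), with the libraries on the x axis and the groups divided by the dotted line. ODC1 and SAT1 lie on opposite sides of 0 in every library, SMS is above 0 in the control libraries and below it in the knockout libraries, and MYC is highest in vector control 2, where ODC1 is at -0.85.

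The share of replication-dependent histone rows in the FPKM sum, not among the planned results, divided the libraries as ODC1 did, but in a different order. The 3 libraries highest for ODC1, vector control 1, KO 2 and KO 3, had shares of 6.26%, 5.20% and 5.24%. The others, vector control 2, vector control 3 and KO 1, had 2.82%, 3.28% and 3.02%. Among these, KO 1 was highest for ODC1, at 21.15 FPKM against 12.96 and 12.56, but not for the histone share. Histone transcripts accumulate in S phase, and the part of this difference between libraries in the ODC1 values was not tested.

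MYC RNA did not follow ODC1 RNA over these libraries. Its values were 18.20, 39.54 and 17.44 FPKM in the control libraries and 12.98, 14.23 and 6.34 in the knockout libraries. Vector control 2 was highest for MYC and held 12.96 FPKM of ODC1, while KO 3 was lowest for MYC and held 33.02. Pearson's r of log2(FPKM + 1) between MYC and ODC1 was -0.51 over the 6 libraries, given as a description. MYC protein and its binding were not measured, and the part of MYC in the ODC1 values was not tested. Neither MYC (log2 fold change -1.07, SE 0.39) nor its partner MAX (-0.29, SE 0.14) was called, though the groups did not overlap for either. With robust limma and array weights, which called 4020 of all 9624 rows, both were called, MYC at -1.47 and MAX at -0.32. MAX stood at 7.67, 7.51 and 7.73 FPKM in the control libraries and at 6.30, 6.60 and 5.35 in the knockout libraries.

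The rows most like ODC1 were sought among 4608 rows of 1 symbol with a mean of at least 5 FPKM. PRPF6 (a spliceosome component) came first, with r = 0.998 over the 6 libraries and values of 23.13, 9.54 and 9.10 in the control libraries and 12.44, 18.18 and 17.96 in the knockout libraries. CEP350 (a centrosomal protein), PSMD12 (a proteasome subunit), ATP5F1A (an ATP synthase subunit) and LBR (the lamin B receptor) followed, with r of 0.997, 0.995, 0.995 and 0.994. They were picked as the highest r of these rows, and no test was made. Among the polyamine genes ranked, r with ODC1 was 0.89 for AMD1, 0.54 for SRM, 0.28 for AZIN1, -0.12 for SMS and -0.91 for SAT1. OAZ2 and DOHH had means below 5 FPKM, and OAZ1 and DHPS had joined rows, so none of these was ranked. The share of ranked rows with an r as far from 0 was not computed, so these values do not set the polyamine genes apart. The libraries share their 2 groups and the pairs that stand apart, so these are not independent points.

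Among the regulators of ODC1 protein, AZIN1 was the steadiest gene of the 10. It stood at 27.48, 27.35 and 25.61 FPKM in the control libraries and at 23.42, 26.48 and 26.58 in the knockout libraries. Its coefficient of variation over the 6 libraries was 5.73%, against 51.9% for ODC1. The log2 fold change was -0.07 (SE 0.14), and 0.03 after quantile normalization. The ratio of ODC1 to this inhibitor of antizyme ran from 0.474 in vector control 2 to 1.76 in vector control 1.

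OAZ2 (antizyme 2) was low throughout and higher in each KO library than in any control. It stood at 2.0, 4.19 and 2.27 FPKM in the control libraries and at 4.66, 5.43 and 5.92 in the knockout libraries. The gap between the nearest libraries, vector control 2 and KO 1, was small beside the spread of the controls. The means were 2.82 ± 1.19 and 5.34 ± 0.635 FPKM (SD, n = 3 each), and the log2 fold change was 0.77 (SE 0.24), not called.

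OAZ1 (antizyme 1) had no row of its own and was counted in a row joined with SPPL2B, a gene of an intramembrane protease on the same strand, 55124 bases away in GENCODE 29. The joined row stood at 12.10, 14.48 and 13.58 FPKM in the control libraries and at 19.55, 17.56 and 17.54 in the knockout libraries. The groups did not overlap. Its log2 fold change was 0.42 (SE 0.14), not called, and how much of it belongs to OAZ1 cannot be told from the row.

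Of the hypusine enzymes, DHPS (deoxyhypusine synthase) was counted together with WDR83OS, MAN2B1 and AC010422, so its own level was not measured. That row stood at 10.00, 15.81 and 14.55 FPKM in the control libraries and at 13.55, 12.85 and 12.00 in the knockout libraries (log2 fold change -0.04, SE 0.19). DOHH (deoxyhypusine hydroxylase), the lowest of the 10, stood at 1.57, 2.11 and 1.82 FPKM in the control libraries and at 0.61, 1.64 and 1.25 in the knockout libraries. Its groups overlapped, since KO 2 lay above vector control 1. It passed the filter with 5 of 6 libraries at 1 FPKM or more, and its log2 fold change was -0.41 (SE 0.21).

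All 10 genes passed the filter, and limma called 0 of them, where it called 1.35% of the 9624 rows tested. At an unadjusted limma p below 0.05 there were 3 of 10, where 17.5% of all rows passed. The groups did not overlap in 3 of 10, SMS lower and OAZ2 and the joined OAZ1 row higher in the knockout libraries. Over all rows this held for 23.8%, with 8.35% lower and 15.4% higher. The median log2 fold change of the 10 was 0.05, and that of all rows was 0.08. Robust limma with array weights, which called 4020 of all rows, called 5 of the 10. Without vector control 1 the count was 3, namely ODC1, SMS and SAT1, where 1329 of all rows were called.

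**Figure D3:**
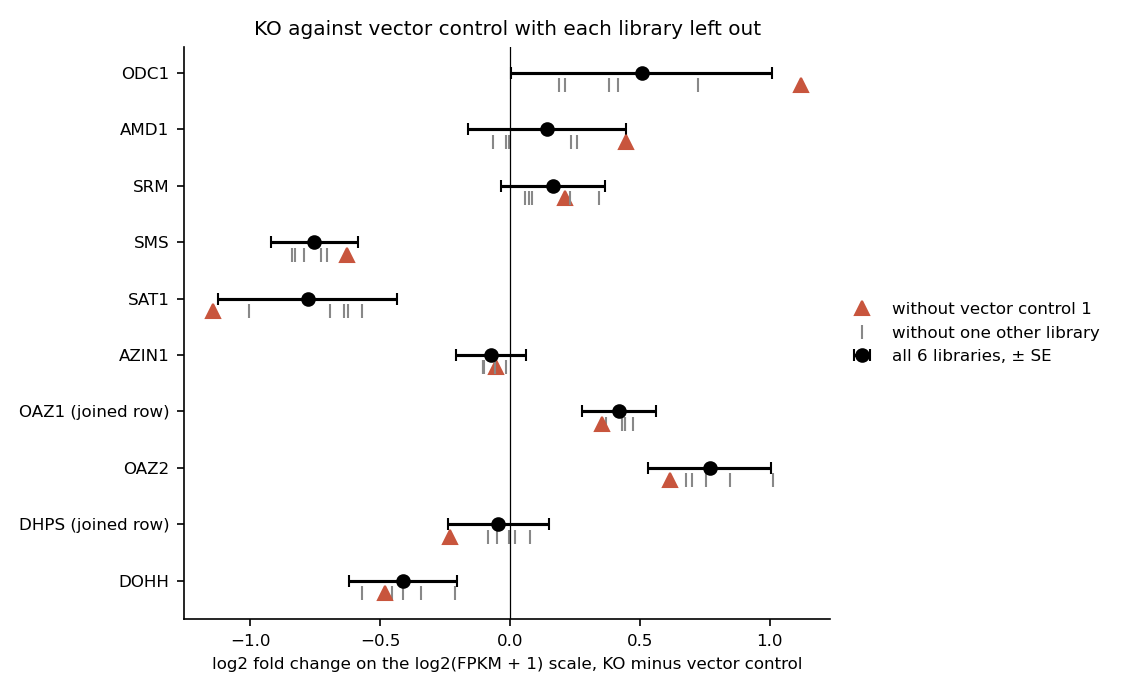
Log2 fold change of KO against vector control on the log2(FPKM + 1) scale (x axis) for each of the 10 genes, with all 6 libraries (black, ± SE) and with a single library left out (red triangles for vector control 1, grey ticks for the others). ODC1 moves from 0.51 to 1.12 and SAT1 from -0.78 to -1.14 without vector control 1, while SMS is below 0 and OAZ2 above 0 in each case.

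Beyond these genes, 27 further genes of polyamine supply, breakdown, transport and use were taken from textbook knowledge, and 20 passed the filter. The lists were drawn up with earlier results of these data known, so their counts are descriptions, from which nothing further is drawn. Of the 20, 1 fell, 0 rose and 19 were not called, where 0.842% of all rows fell and 0.509% rose. Their median log2 fold change was -0.19, with 15 below 0 and 5 above, against 0.08 for all rows. The groups did not overlap in 9 of the 20, 7 of them lower and 2 higher in the knockout libraries, where 23.8% of all rows did not overlap, 8.35% lower and 15.4% higher. AZIN2 is one of the 2 higher, and it passed the filter only through the knockout group.

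The gene that fell was ATP13A3, which encodes a P-type ATPase that carries polyamines into cells. It stood at 15.78, 17.37 and 14.84 FPKM in the control libraries and at 8.14, 5.82 and 6.20 in the knockout libraries. Every KO library lay well below every control, with a log2 fold change of -1.15 (SE 0.17, limma adjusted p = 0.0288). The call was lost without KO 2 (adjusted p = 0.140), KO 3 (0.153), vector control 2 (0.133) or vector control 3 (0.113), with the fold change between -1.28 and -1.06 in all fits that left 1 library out. Over all alternatives its adjusted p ran from 7.8e-04 with robust limma and array weights to 0.202 with the replicate number as a block. ATP13A2, a lysosomal polyamine exporter of the same family, had the highest fold change of the transport genes, 0.31 (SE 0.17, limma adjusted p = 0.382), and was called with robust limma and array weights, at 0.41.

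SMOX (spermine oxidase), which converts spermine back to spermidine, missed the threshold narrowly. It stood at 4.10, 7.63 and 7.42 FPKM in the control libraries and at 1.12, 2.24 and 1.41 in the knockout libraries. The groups did not overlap, and the log2 fold change was -1.49 (SE 0.26, limma adjusted p = 0.0503). It was called after median scaling (0.0494), after quantile normalization (0.0478), with robust limma and array weights (8.6e-04) and without vector control 1 (0.0122), and its adjusted p reached 0.207 without KO 3. PAOX, the oxidase of acetylated polyamines, was counted in a row joined with MTG1 and AL360181, which had the highest fold change of its list, 0.41 (SE 0.17, adjusted p = 0.285). That row was called without vector control 1 and with robust limma and array weights.

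The methylthioadenosine left over by SRM and SMS is recycled to methionine by a salvage pathway that begins with MTAP. MTAP was listed at 0 to 0.02 FPKM in all 6 libraries, and it is named here after its value was seen. ADI1, a later enzyme of the same salvage, stood at 41.37, 46.42 and 39.53 FPKM in the control libraries and at 20.83, 22.47 and 10.49 in the knockout libraries. Every KO value lay below every control (log2 fold change -1.26, SE 0.28, limma adjusted p = 0.0975, called with robust limma and array weights). MAT2B, the regulatory subunit of methionine adenosyltransferase, had the highest fold change of this list, 0.04 (SE 0.14), and -0.05 after median scaling.

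The list of arginine, ornithine and agmatine supply also held AZIN2, a second antizyme inhibitor rather than an enzyme of supply. AZIN2 had the highest fold change of this list, 0.36 (SE 0.13, limma adjusted p = 0.238). It stood at 0.61 to 0.93 FPKM in the control libraries and 1.13 to 1.29 in the knockout libraries. Only its 3 knockout values reached the 1 FPKM of the filter, so a higher knockout level was a condition of its being tested, and the fold change and its p are a description. ARG2 (mitochondrial arginase) had the lowest, -0.23 (SE 0.15, adjusted p = 0.460), at 7.03 to 8.55 and 5.87 to 6.93 FPKM. OAT and ALDH18A1 of the same list had fold changes of -0.18 and -0.21, not called. EIF5A, which encodes the protein that carries hypusine, stood at 130.22, 76.60 and 105.76 FPKM in the control libraries and at 59.16, 116.57 and 108.11 in the knockout libraries. KO 1 was its lowest library and vector control 1 its highest, and the groups overlapped (log2 fold change -0.16, SE 0.31, but 0.24 with robust limma and array weights). EIF5A2 stood between 2.56 and 3.29 FPKM in all 6 libraries (-0.07, SE 0.14).

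**Figure D4:**
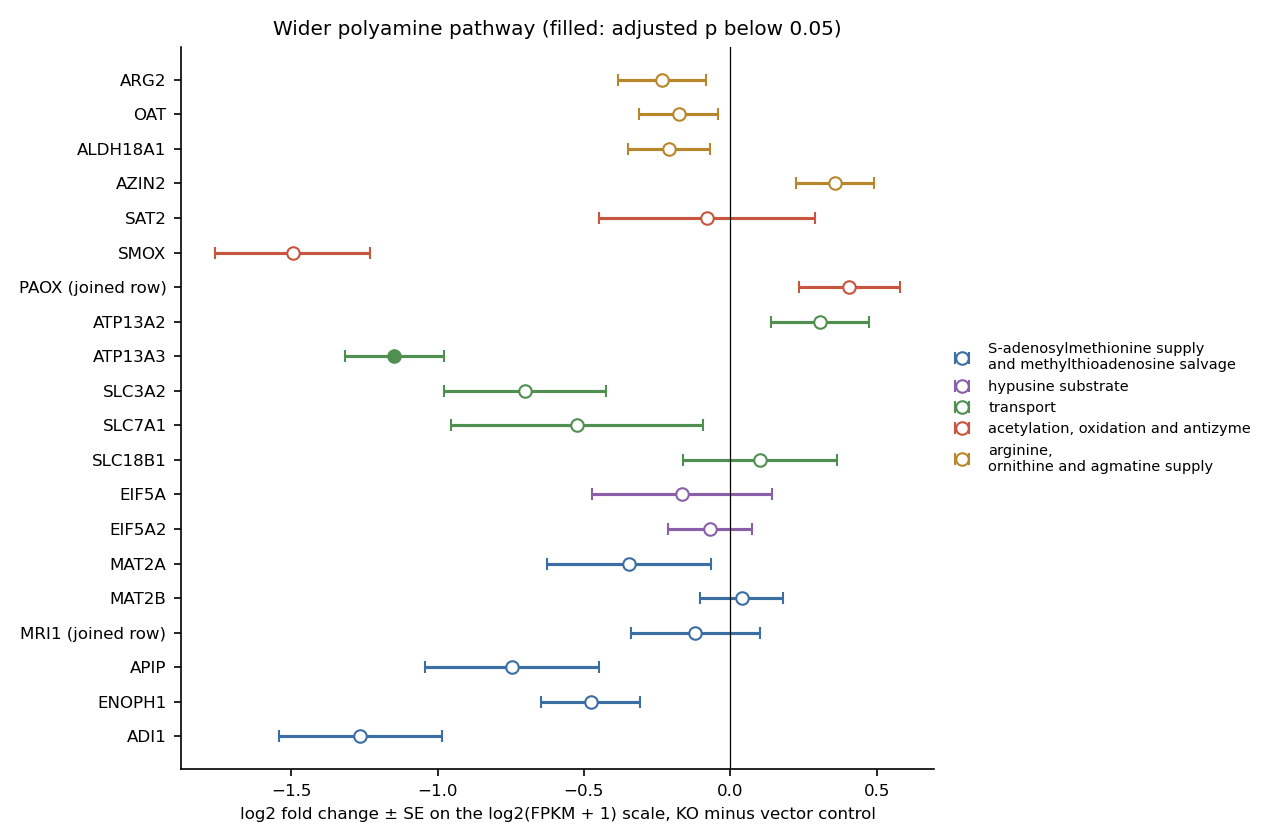
Log2 fold change ± SE of KO against vector control on the log2(FPKM + 1) scale (x axis) for the 20 further polyamine genes that passed the filter, coloured by list, with filled points for an adjusted p below 0.05. ATP13A3, at -1.15, is the single filled point, and SMOX, at -1.49, lies lowest.

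Several of these further genes, named after their values were seen, set vector control 1 apart as SAT1 did. SAT2, a relative of SAT1, stood at 4.90 FPKM in vector control 1 and at 13.70 and 14.11 in vector control 2 and 3. MAT2A, which makes S-adenosylmethionine, stood at 108.44 against 185.15 and 172.38, and SLC3A2, the heavy chain of several amino acid transporters, at 19.27 against 38.68 and 38.55. In the knockout libraries MAT2A, like SAT1, was highest in KO 1, at 163.95 against 95.07 and 107.76. SLC7A1 (a cationic amino acid transporter) instead set KO 1 apart, at 4.89 FPKM against 17.18 and 16.42 in KO 2 and 3 and 14.63 to 20.71 in the control libraries.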

How the data were processed

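Total RNA of 6 MIA PaCa-2 samples was measured, 3 per group, and samples were grouped by title. The authors deposited 1 table of FPKM, 2 decimals, 1 column per library. The tools cutadapt, FastQC and HISAT2 and the build hg19 are named, per the submitters' processing notes. Not given in the sources used here are versions, the program behind the FPKM, the gene annotation and whether strand was used, so antisense reads cannot be told apart. Depth is unknown: a search for whole-read steps in low values of short genes found none (best concentration 0.274 to 0.333 per library, exact multiples giving 1). The search covered a limited range of steps on values of 2 decimals, so it cannot settle the depth. How far depth and the number of libraries each limit the precision was not tested. All 13 mitochondrially encoded rows were at 0, so a 0 can be an unmeasured value.

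Here limma 3.58.1 (R 4.3.3; lmFit, eBayes with trend, two-sided) was fitted on log2(FPKM + 1), without covariates, to the 9624 rows with at least 1 FPKM in at least 3 libraries, with Benjamini-Hochberg adjustment over all of them. The pseudocount understates changes of low genes. The code was tested on simulated data. Joined rows were kept as 1 unit. The genes, the lists and the tests were chosen with earlier results of these data known. Named were the 10 genes, MYC and MAX, each called gene and the highest and lowest fold change of each wider list, and the 5 rows most correlated with ODC1. Alternatives were other pseudocounts, filters, scalings, weights and thresholds, a replicate block, rows of 1 symbol and each library left out. Promoters came from RefSeq (GRCh38.p14) and gene positions from GENCODE 29. A listed marker gene is not reported here.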

Additional observations from a re-analysis of the deposited data

How the results depend on the processing

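The groups hold 3 libraries each and depth is unknown, which limits what differences could be seen. Over all rows limma called 130 at the settings used, 49 higher and 81 lower in the knockout libraries, and after quantile normalization 31 higher and 99 lower. It called 241 without a filter, 59 with a filter at 5 FPKM, 4020 with robust limma and array weights, 274 at an adjusted p below 0.1 and 31 below 0.01. With single libraries left out the count ran from 25 (without KO 3) to 1329 (without vector control 1). The count of the 10 polyamine genes, 0, was 5 with robust limma and array weights, 1 (SMS) at an adjusted p below 0.1, and 0 to 3 with single libraries left out. The count of the wider pathway, 1, was 2 after median scaling and after quantile normalization, 9 with robust limma and array weights, 3 below 0.1, 0 below 0.01, and 0 to 4 with single libraries left out. The log2 fold change of ODC1 ran from 0.19 to 1.12 with single libraries left out and was 1.22, and called, with robust limma and array weights. The cause of these shifts was not tested. Filters and left-out libraries also change the number of rows or samples, and the part of that was not tested either.

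Same-numbered libraries had correlations of -0.374, -0.153 and -0.264 between their deviations from the group means. Deviations from a mean of 3 libraries sum to 0, so these correlations depend on one another. They cannot settle whether the replicate numbers pair the samples. With the replicate number as a block 7 rows were called, 0 of the wider pathway (ATP13A3 at adjusted p = 0.202) and 0 of the 10. No library correlated best with its own number.

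Fold changes near 0 took the opposite sign in some fits: AZIN1 at 0.031 after quantile normalization, MAT2B at -0.050 after median scaling, and EIF5A at 0.24 and the joined MRI1 row at 0.074 with robust limma and array weights. With single libraries left out AMD1 ran from -0.066 to 0.45, the DHPS row from -0.23 to 0.076, SAT2 from -0.52 to 0.15, SLC7A1 from -0.81 to 0.0073 and SLC18B1 from -0.16 to 0.29. EIF5A ran from -0.37 to 0.14, MAT2B from -0.019 to 0.11 and the MRI1 row from -0.27 to 0.042. Of 176 fold changes of the 10 genes under the alternatives, 161 kept their direction and their side of the threshold. The filters, thresholds, replicate block, fit without the trend and rows of 1 symbol leave the fold change itself unaltered by construction. Directions were thus fixed in advance there, and the count does not measure robustness. With 0 of the 10 called, none could change side at the stricter threshold of 0.01.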
